A study of Zea mays with 10 samples.

Results

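Maize gene models whose transcripts stood low in whole ms28 anthers at prophase I, while isolated germ cells of the same mutant stayed near the wild-type level, form a set of 31 among the 22377 gene models present in both prophase I tables. They were chosen by their measured values. Both B73 anther libraries had to read 5 TPM or more, and the lower of them at least 3 times the higher ms28 anther library. In germ cells the means of ms28 and B73 both had to be at least 5 TPM, with a ratio of ms28 to B73 between 0.5 and 2. Gene models Zm00001d012786 to Zm00001d013188, a block of gene numbers with clustered ms28 changes, were left out. TPM, a length-corrected transcript abundance scaled to a fixed total in each library, is relative, so a lower TPM is a lower share and not by itself fewer molecules per cell.

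The libraries used were anthers at prophase I from ms28 and from B73, male germ cells at prophase I from ms28 and from B73, and anthers of B73 before meiosis, 2 libraries in each of 5 groups. All are of maize, from total RNA amplified by a Smart-seq type method. The labels give ms28 and B73 as the genotypes and name no cross or allele beyond that, so differences between the lines other than the mutation may be part of each comparison. The labels do not tell whether both libraries of a genotype and tissue were made from different plants, so each p-value reflects library-to-library spread alone, and this spread could be of technical origin.

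An anther lobe holds the meiotic cells at its centre and wraps them in somatic layers: the tapetum, which feeds the developing germ cells, then the middle layer, the endothecium and the epidermis. A whole-anther library mixes all of these, whereas the isolated germ cell library is meant to hold the meiotic cells. Grass anthers accumulate 21-nt phasiRNAs, small RNAs cut in a regular register from long precursors and loaded into Argonaute proteins, and Male sterile28 is known to encode an Argonaute protein needed for male fertility. Fewer cells of a type in the anther and less RNA per cell cannot be told apart in such bulk samples.

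The gene IDs could not be tied to names. Of the 31 members, 0 matched the reference gene table used here, so none is given a name, a function or a sequence, and markers of the anther layers or of meiotic cells could not be looked for. Whether an isolated germ cell library is free of somatic RNA was therefore not tested. The 8 prophase I libraries were not level with each other. Over all features in both tables the median was 5.77 and 6.06 TPM in ms28 anthers against 10.7 and 8.53 TPM in B73 anthers, and 7.19 and 7.12 TPM in ms28 germ cells against 6.30 and 6.88 TPM in B73 germ cells. The median change of all fitted features in ms28 anthers was -0.48 on the log2(TPM + 1) scale, and the members' values there are not corrected for it.

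Summed over the 31 members, the transcripts took 264 and 241 TPM in ms28 anthers against 2231 and 1299 TPM in B73 anthers. The 8680 other gene models that met every condition but the anther fold summed to 574975 and 632174 TPM in ms28 anthers and to 689159 and 637829 TPM in B73 anthers. In germ cells the members summed to 679 and 606 TPM in ms28, against 663 and 912 TPM in B73. The ratio of mean sums, ms28 over B73, was 0.817 in germ cells. These sums describe the choice and carry no test. With B73 and ms28 anthers exchanged, the same rule found 2 gene models. That count used TPM as deposited, with the lower medians in ms28 anthers, and was not repeated on scaled values.

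Most members sat close to the limit of the rule, and a few lay far past it. The lower B73 anther value was between 3.00 and 17.2 times the higher ms28 anther value, with a median of 3.85. It was at least 10 times in 5 members, at least 5 times in 10, and under 4 times in 17. Of all gene models, 2.68% reached the 3-fold limit in anthers, and among those that met every other condition it was 0.356%. The first share has no minimum TPM and includes the block that the rule left out.

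Zm00001d018704 had the highest such ratio. It read 1.15 and 3.73 TPM in ms28 anthers against 161 and 64.3 TPM in B73 anthers, and 52.2 and 28.7 TPM in ms28 germ cells against 23.9 and 91.2 TPM in B73 germ cells. Its anther groups lay wide apart, whereas in germ cells both ms28 libraries fell between the B73 libraries. Zm00001d042572 read 0.34 and 1.97 TPM in ms28 anthers against 44.0 and 33.5 TPM in B73 anthers, and 8.29 and 8.14 TPM in ms28 germ cells against 9.77 and 4.56 TPM in B73 germ cells. The ms28 germ cell libraries again lay inside the B73 range, and the ms28 anther libraries differed 5.79-fold from each other at these low levels. Zm00001d049381 read 0.63 and 1.37 TPM in ms28 anthers against 158 and 21.3 TPM in B73 anthers, a 7.41-fold gap within B73. In germ cells it stood higher in both ms28 libraries, at 28.2 and 15.0 TPM, than in the B73 libraries, at 12.2 and 12.2 TPM.

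Zm00001d029359 read 1.52 and 1.23 TPM in ms28 anthers against 47.0 and 20.5 TPM in B73 anthers. Zm00001d002847 read 4.07 and 4.84 TPM in ms28 anthers against 279 and 57.4 TPM in B73 anthers. Both kept ms28 and B73 anthers well apart while the B73 libraries differed from each other 2.30-fold and 4.86-fold. In germ cells Zm00001d029359 read 9.53 and 6.63 TPM in ms28 against 5.14 and 16.0 TPM in B73, and the groups overlapped. For Zm00001d002847 the values were 9.54 and 4.67 TPM in ms28 germ cells against 6.94 and 20.3 TPM in B73 germ cells, which overlapped too.

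**Figure D1:**
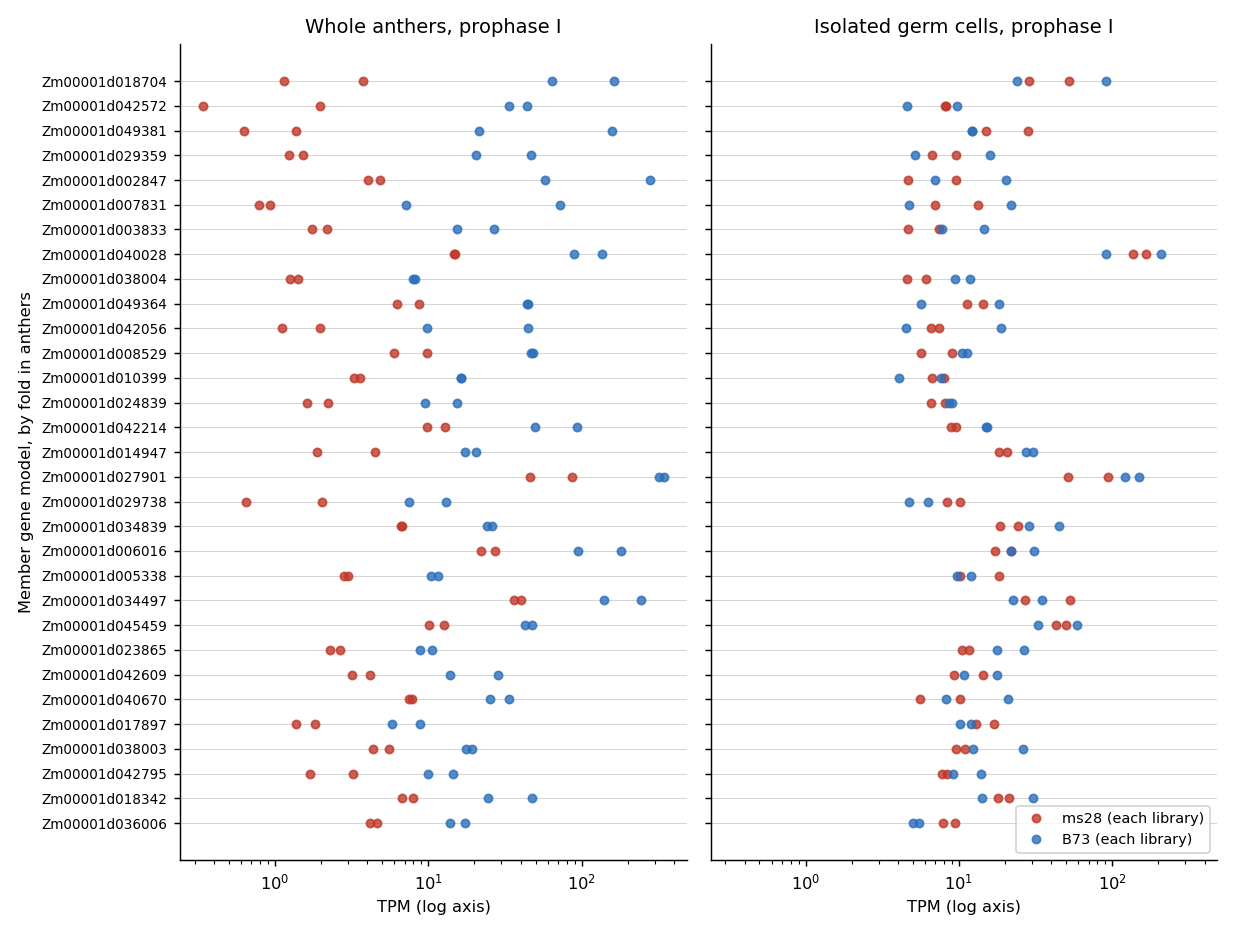
TPM of the 31 members in each library (log axis), in whole anthers at left and isolated germ cells at right, with ms28 in red and B73 in blue and the gene models ordered by their fold in anthers. In anthers the colours are separate in every row, as the rule required. In germ cells they overlap in 16 of 31 rows, a count not made for other gene models.

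The most abundant members included transcripts that stayed well expressed in ms28 anthers. In B73 anthers 6 members averaged at least 100 TPM and 11 under 20 TPM, and 10 averaged under 2 TPM in ms28 anthers. Zm00001d027901 was the most abundant in B73 anthers, with 86.4 and 46.2 TPM in ms28 anthers against 321 and 343 TPM in B73 anthers. It was the most abundant member in both ms28 anther libraries as well. Zm00001d034497 read 36.0 and 40.4 TPM in ms28 anthers against 243 and 139 TPM in B73 anthers, and Zm00001d006016 read 27.0 and 22.2 TPM against 181 and 95.2 TPM. In both, B73 replicate 1 was the higher library. In germ cells Zm00001d027901 was lower in both ms28 libraries, at 51.1 and 93.8 TPM, than in the B73 libraries, at 148 and 122 TPM. Zm00001d034497 overlapped there, with 53.2 and 27.1 TPM in ms28 and 22.4 and 34.9 TPM in B73.

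The members just inside the 3-fold limit were Zm00001d036006, Zm00001d018342 and Zm00001d042795, at 3.004, 3.09 and 3.10 times. Just outside it were Zm00001d034757, Zm00001d006574 and Zm00001d022089, at 2.997, 2.98 and 2.96 times. Zm00001d036006 read 4.15 and 4.62 TPM in ms28 anthers against 17.3 and 13.9 TPM in B73 anthers, and Zm00001d006574, on the other side, 1.94 and 1.99 TPM against 9.44 and 5.94 TPM. No gap in the values separates members from their nearest neighbours, so the number 31 follows from where the limit was set.

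Since the median feature sat lower in ms28 anthers, the rule was also applied after each library was scaled to the same median. The ratio of the lower B73 to the higher ms28 anther value then ran from 1.92 to 12.3 with a median of 2.50. It was at least 2 in 28 members and at least 3 in 11. That it stayed above 1 in all 31 follows from the choice at 3-fold, since the scaling lowered each ratio by less than that. The whole rule was met by 9 gene models, all 9 of them members. They were Zm00001d018704, Zm00001d042572, Zm00001d049381, Zm00001d029359, Zm00001d007831, Zm00001d003833, Zm00001d040028, Zm00001d042056 and Zm00001d024839, a list read off after the values were seen. With quantile normalization 16 gene models met the rule, and 14 of these were members.

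**Figure D2:**
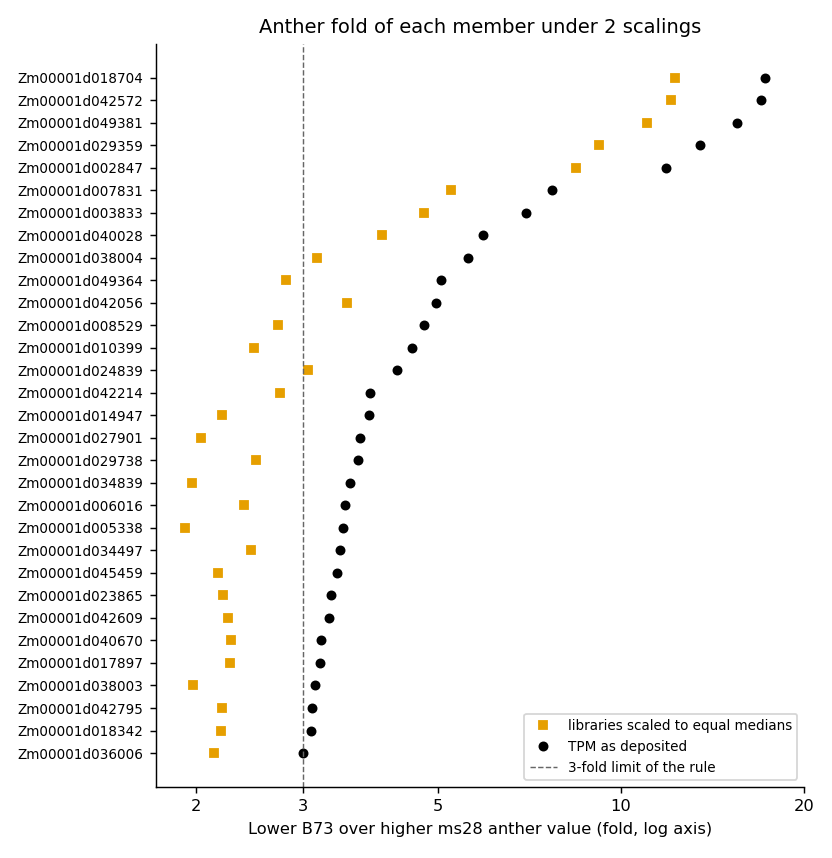
Ratio of the lower B73 to the higher ms28 anther value for each member (log axis), with TPM as deposited (black circles) and with every library scaled to the same median (orange squares), and the 3-fold limit of the rule (dashed). Scaling moves every member to the left, and 11 of 31 stay at or past 3-fold.

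Across all features, ms28 was compared with B73 by limma, a linear model with a shared estimate of the spread, on log2(TPM + 1) with Benjamini-Hochberg adjustment over 20892 features. Because this contrast chose the members, the values describe them and test nothing. The model called 7.31% of features lower in ms28 anthers, 0.507% higher, and 30 of the 31 members lower. The members' log2 changes ran from -5.01 to -1.62 with a median of -2.29, and the adjusted p of those called in limma ran from 0.0036 to 0.042. Zm00001d018704 changed by -5.01 (SE 0.69, adjusted p = 0.013) and Zm00001d042572 by -4.30 (SE 0.43, adjusted p = 0.0036) in the limma fit. The member not called was Zm00001d007831 (log2 -3.72, SE 0.96, limma adjusted p = 0.052), which read 0.93 and 0.79 TPM in ms28 anthers against 72.5 and 7.16 TPM in B73 anthers.

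The number of members called moved with the fit, and so did the calls over all fitted features, lower and higher together. Those were 1633 in the main fit, 67 in the anther table alone and 307 with every library centred on its median feature. With 1 library left out, they too were below the main fit, except without B73 anther replicate 2. In a limma fit of the anther table alone, 2 members were called. With every library centred on its median feature 14 were called, and without ms28 anther replicate 1 there were 3. Leaving out ms28 anther replicate 2 gave 13, leaving out B73 anther replicate 1 gave 18, and leaving out either ms28 germ cell library gave 16. Over 14 alternative fits, Zm00001d042572 and Zm00001d040028 were each called in 13, the highest count among the members, and Zm00001d007831 in 2. The log2 change of Zm00001d042572 ran from -5.33 to -3.70 over these fits and the main one, and its adjusted p in limma from 0.0032 to 0.052.

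Germ cells carried the condition that the mutant stay near B73. The ratio of mean TPM, ms28 over B73, ran from 0.50 to 1.77 with a median of 0.763. It was below 1 in 20 members and above 1 in 11. The libraries of ms28 and B73 overlapped in 16 members. In 11 members both ms28 libraries lay below both B73 libraries, and in 4 both lay above. These counts were not made for the other gene models, so they describe the members alone. The limma fit called 5.29% of features lower and 9.05% higher in ms28 germ cells, and 2 members, both lower. The members' median log2 change in germ cells was -0.24, against 0.07 for all features.

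Those 2 members were Zm00001d023865 and Zm00001d038004. Zm00001d023865 read 11.6 and 10.5 TPM in ms28 germ cells against 17.7 and 26.6 TPM in B73 germ cells, with a ratio of 0.50 at the very edge of the rule (log2 -0.91, limma adjusted p = 0.045). Zm00001d038004 read 6.08 and 4.59 TPM in ms28 germ cells against 9.36 and 11.8 TPM in B73 germ cells, with a ratio of 0.504 (log2 -0.87, limma adjusted p = 0.041). The difference between the germ cell and the anther effect was not called for either member (log2 0.72 and 1.09, limma adjusted p = 0.181 and 0.057). In anthers Zm00001d023865 read 2.64 and 2.27 TPM in ms28 against 10.6 and 8.80 TPM in B73. Both germ cell calls ended with the replicate number as a block, where 0 members were called. Over all 20892 features that fit called 2256, lower and higher together, against 2995 in the main fit.

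At the other end stood the members whose ratio of germ cell means was nearest 1. Their B73 germ cell libraries still differed from each other, by 1.78-fold to 3.22-fold. Zm00001d040028 read 165 and 136 TPM in ms28 germ cells against 90.7 and 207 TPM in B73 germ cells, with a ratio of means of 1.01. The same transcript read 14.9 and 14.7 TPM in ms28 anthers against 136 and 88.6 TPM in B73 anthers. Its ms28 germ cell libraries lay between the B73 ones, and its ms28 anther libraries differed from each other by 1.02-fold. Zm00001d045459 read 42.8 and 49.8 TPM in ms28 germ cells against 58.7 and 32.9 TPM in B73 germ cells (ratio 1.01), and 10.1 and 12.6 TPM in ms28 anthers against 47.6 and 43.0 TPM in B73 anthers. Zm00001d049364 had a ratio of 1.08 in germ cells, with 11.3 and 14.3 TPM in ms28 against 18.1 and 5.62 TPM in B73.

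**Figure D3:**
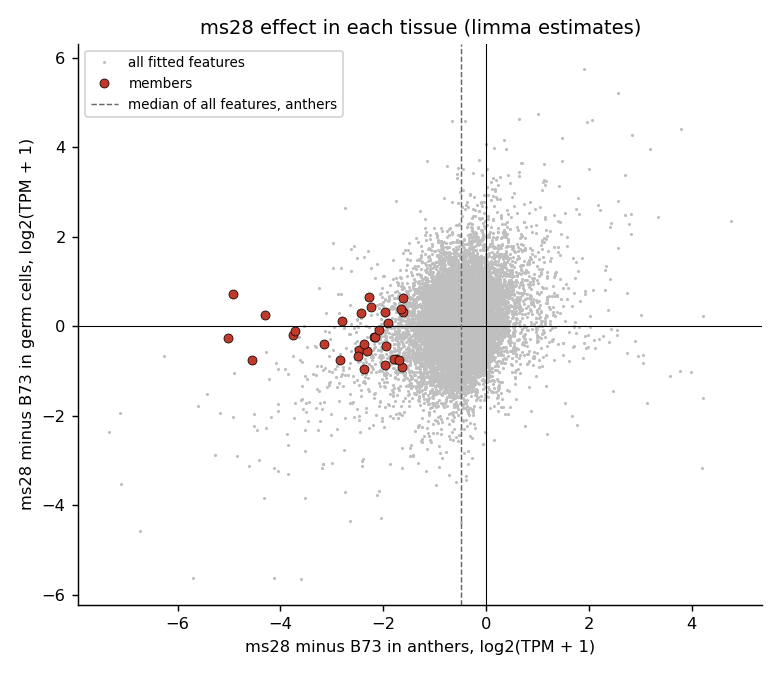
limma estimates of ms28 minus B73 on the log2(TPM + 1) scale, in anthers (horizontal) and germ cells (vertical), for all fitted features (grey) and the 31 members (red), with the median of all features in anthers dashed. The members lie between -5.01 and -1.62 in anthers and between -0.95 and 0.71 in germ cells, the region the rule cut out.

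The germ cell effect of ms28 minus its anther effect was positive in all 31 members, as the rule nearly fixes, with a median of 2.00 on the log2 scale against 0.56 for all features. limma called 13.9% of features with a positive difference and 0.512% with a negative one. Among the members 22 were called, all positive. The count was 4 with centred libraries, where 452 of all features were called, and 2 with quantile normalization, where 221 were. With 1 library left out, the count fell in every fit but the one without B73 anther replicate 2. Calls over all features fell in the same fits. Both were lowest without either ms28 germ cell library. The members' median difference ran from 1.87 without B73 anther replicate 1 to 2.39 without B73 anther replicate 2.

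The contrast between tissues within B73 was not a condition of the rule, although the rule set a minimum in both tissues and drew on the B73 anther values. It is therefore given as a description of the members. The ratio of means, germ cells over anthers, ran from 0.0812 to 2.28 with a median of 0.510, and 23 of 31 members were below 1. Both B73 germ cell libraries lay below both B73 anther libraries in 51.6% of members and in 32.9% of the other gene models that met the level conditions. The limma fit called 41.2% of all features lower and 27.0% higher in B73 germ cells than in B73 anthers. Of the members it called 13 lower, or 41.9%, a share close to that of all features, and 1 higher, or 3.23%, a smaller share. The members' median log2 difference was -1.08. It was -0.36 for all features and 0.25 for the other gene models that met the level conditions. Anthers and germ cells stand in tables that were deposited separately, so tissue and table cannot be told apart in this contrast.

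By the log2 difference of germ cells and anthers in B73, Zm00001d002847 was the lowest, with 6.94 and 20.3 TPM in B73 germ cells against 279 and 57.4 TPM in B73 anthers (log2 -3.30, SE 0.72, limma adjusted p = 0.0038). Zm00001d034497 followed, at 22.4 and 34.9 TPM in B73 germ cells against 243 and 139 TPM in B73 anthers (log2 -2.68, SE 0.38, limma adjusted p = 0.00046). Zm00001d042572 came next, with a log2 difference of -2.35 (SE 0.43, limma adjusted p = 0.0015). In these the anther libraries of B73 lay above its germ cell libraries without overlap. The member called higher in B73 germ cells was Zm00001d023865, at 17.7 and 26.6 TPM against 10.6 and 8.80 TPM in B73 anthers (log2 1.09, SE 0.25, limma adjusted p = 0.0047). Zm00001d014947 and Zm00001d017897 were next in order, with log2 differences of 0.59 and 0.56 that missed the threshold in limma (adjusted p = 0.116 and 0.087). Zm00001d014947 read 27.5 and 30.5 TPM in B73 germ cells against 17.4 and 20.6 TPM in B73 anthers.

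Within ms28 the order of the tissues was the other way round. The ratio of germ cells to anthers ran from 0.791 to 21.6 with a median of 3.26, and was above 1 in 28 of 31 members. The exceptions were Zm00001d006016, Zm00001d042214 and Zm00001d008529, at 0.791, 0.809 and 0.929. Both ms28 germ cell libraries lay above both ms28 anther libraries in 24 members, or 77.4%, against 65.1% of the other gene models that met the level conditions. The ms28 anther values were used by the rule, which chose them low, so these ratios are a description. Zm00001d017897, for example, read 17.0 and 12.9 TPM in ms28 germ cells against 1.37 and 1.82 TPM in ms28 anthers, and Zm00001d014947 read 18.1 and 20.5 TPM against 1.89 and 4.52 TPM.

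The premeiotic anthers of B73 took no part in the choice of members. That table is normalized separately and its unit is not stated in the sources used here, so genes were placed by percentile rank over the 25412 features it shares with the prophase I anther table. All 31 members were in it. Their median percentile was 43.9 in ms28 prophase I anthers, 76.8 in B73 prophase I anthers and 56.3 in B73 premeiotic anthers. The 8680 other gene models that met the level conditions had medians of 76.9, 76.9 and 77.5 in the same groups. By these medians members and others stood level in B73 at prophase I, whose values the rule used, and the members stood lower before meiosis.

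In 27 of 31 members (87.1%), both B73 prophase I libraries ranked above both premeiotic libraries, which held for 30.6% of all features and for 33.5% of the other gene models that met the level conditions. In 19 members (61.3%), both ms28 prophase I libraries ranked below both premeiotic libraries, against 46.3% of all features and 48.9% of those others. Both held together in 15 members (48.4%), against 2.18% of all features and 2.00% of those others. The rule asked for high B73 and low ms28 values at prophase I, so part of these counts follows from it, and no test was made. In 5 members both ms28 libraries ranked above both premeiotic ones, and in 7 they overlapped. The 5 were Zm00001d038004, Zm00001d049364, Zm00001d042056, Zm00001d042214 and Zm00001d027901.

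Before meiosis the members covered nearly the whole range, with mean percentiles from 17.9 to 99.0, of which 2 lay under 25 and 7 over 75. Zm00001d040028 stood at a mean percentile of 74.6 in ms28 and 93.8 in B73 anthers at prophase I, against 98.9 and 99.2 in the premeiotic libraries. Zm00001d018704 stood at 25.6 and 45.2 in ms28 anthers and at 95.5 and 90.6 in B73 anthers at prophase I, against 96.4 and 97.0 before meiosis. Both were among the most abundant transcripts before meiosis and in B73 at prophase I, and ranked lower in ms28. These and Zm00001d036006 were the 3 members whose B73 ranks were lower at prophase I than before meiosis in every pairing of libraries, which held for 46.9% of all features. Zm00001d034497, the next highest before meiosis, ranked at 87.3 and 88.1 in ms28 anthers and 97.1 and 95.5 in B73 anthers, against 88.1 and 88.5 before meiosis. Its rank in ms28 lay at about its premeiotic rank.

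Zm00001d042056 was the lowest of the members before meiosis. It stood at 25.1 and 33.1 in ms28 anthers and 84.6 and 58.7 in B73 anthers at prophase I, against 16.7 and 19.0 before meiosis. Zm00001d038004 stood at 28.7 and 26.2 in ms28 anthers and 49.7 and 54.1 in B73 anthers, against 17.4 and 19.9 before meiosis. Zm00001d007831 stood at 22.8 and 20.3 in ms28 anthers and 90.0 and 51.6 in B73 anthers, against 25.2 and 26.4 before meiosis. In each of these the B73 libraries at prophase I ranked well above the premeiotic ones.

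**Figure D4:**
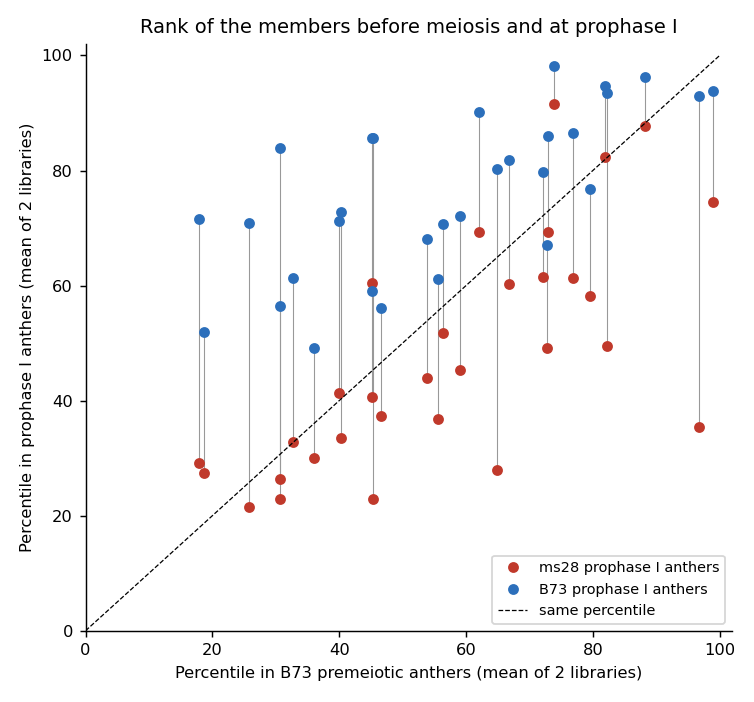
Mean percentile of each member in B73 premeiotic anthers (horizontal) against its mean percentile at prophase I (vertical) in ms28 (red) and B73 (blue) anthers, joined by a line for each gene model, with equal percentiles dashed. Blue points lie mostly above the dashed line, with a median of 76.8 against 56.3 before meiosis, and the median of the red points is 43.9.

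The libraries of a group were next compared with each other, as a description without a test. Between the ms28 anther libraries the members' median fold was 1.26 and between the B73 anther libraries 1.51, against 1.16 and 1.22 for the other gene models that met the level conditions. Between the ms28 germ cell libraries it was 1.28 and between the B73 germ cell libraries 1.56, against 1.15 and 1.22. More than 2-fold apart between the B73 germ cell libraries were 11 members (35.5%), against 3.61% of the others, and between the B73 anther libraries 7 members (22.6%), against 6.79%. In 5 members both held. The differences had a direction. B73 anther replicate 1 was the higher library in 26 members (83.9%) and in 72.0% of the others. B73 germ cell replicate 2 was the higher one in 22 members, and replicate 1 in 29.0% of the members against 53.7% of the others. Both together, anther replicate 1 and germ cell replicate 2, were seen in 18 members (58.1%) and in 31.6% of the others.

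The largest gap was in Zm00001d007831, which differed 10.1-fold between the B73 anther libraries and 4.62-fold between the B73 germ cell libraries (4.71 and 21.8 TPM). Zm00001d042056 went the other way in germ cells, with 18.9 and 4.53 TPM in B73, beside 44.6 and 9.74 TPM in B73 anthers. In both, the gap between the B73 germ cell libraries was wider than the gap between the ms28 and B73 germ cell means. Members with nearly equal B73 anther libraries included Zm00001d038004, at 8.18 and 7.96 TPM, and Zm00001d049364, at 44.5 and 44.1 TPM. In ms28 anthers these read 1.42 and 1.25 TPM and 8.70 and 6.27 TPM. Zm00001d010399 had the most equal pair, at 16.32 and 16.30 TPM. With 2 libraries against 2, an exact two-sided permutation test of a single gene cannot go below p = 0.333.

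**Figure D5:**
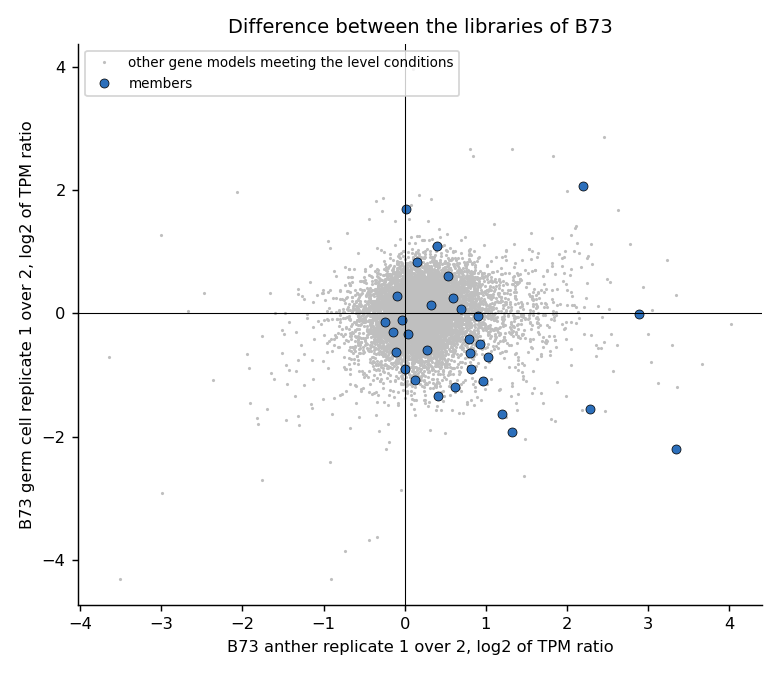
Ratio of replicate 1 to replicate 2 in B73, as log2 of TPM, in anthers (horizontal) and germ cells (vertical), for the 31 members (blue) and 8679 other gene models that met the level conditions (grey; 1 with a value of 0 is not drawn). Of the members, 18 lie at lower right, higher in anther replicate 1 and in germ cell replicate 2.

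The members were scattered over the gene numbers. The nearest pair, Zm00001d038003 and Zm00001d038004, have consecutive numbers, and no other members lay within 5 numbers of each other. Zm00001d038003 read 4.36 and 5.57 TPM in ms28 anthers against 19.2 and 17.5 TPM in B73 anthers, and 10.9 and 9.62 TPM in ms28 germ cells against 12.4 and 26.2 TPM in B73 germ cells. Like its neighbour it was lower in both ms28 libraries in each tissue. Within 5 numbers of any member there were 144 other gene models in both tables, of which 140 were fitted. Their median log2 change in ms28 anthers was -0.61, against -0.48 for all features, and limma called 15 of them lower, where 7.31% of all features were. At or past the 3-fold limit in anthers were 4 of the 144.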

How the data were processed

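Of the 3 deposited tables, those for prophase I anthers and prophase I male germ cells hold TPM as read from the values: the authors' columns sum to 99.1 to 99.4% of 1000000 without a common step, and no header or label names the unit. The deposited premeiotic table is treated as a score used by rank. Its columns sum to 83.0 and 83.2% of that total, and 1 value of -1e-06 was set to 0. Per the submitters' processing notes the build is B73 RefGen_v4 and the tools named are DESeq2, featureCounts 2.0.1, HISAT2 2.2.1, Trimmomatic 0.33 and Cufflinks, with no step assigned. Sequencing depth per library is unknown. Columns were matched by genotype, replicate and the table's name, with WT read as B73.

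The limma package 3.58.1 (trend option, R 4.3.3) fitted log2(TPM + 1) of all 8 prophase I libraries with 1 coefficient per group. Of 22402 features, 20892 were kept, those that 2 or more libraries placed at or above 1 TPM. All 31 members passed. Features were called at an adjusted p under 0.05. The log2 scale with a pseudocount understates changes of low genes. The fit was checked on simulated data. Members and lists were chosen with earlier results of these data known. Named genes followed a rule on fold, level, premeiotic rank, tissue difference, germ cell ratio, the limit and gene number, and others singled out were chosen after their values were seen. Ranks, tables and figures used Python 3.11.15, pandas 2.3.3, numpy 2.4.6 and matplotlib 3.10.9.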

Additional observations from a re-analysis of the deposited data

Results flagged for a closer look

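The effect of ms28 differed between germ cells and anthers, by the limma interaction on log2(TPM + 1), in 22 of the 31 members. The members were chosen for that difference, so the count describes the choice. It stood at 23 with a pseudocount of 0.1, and at 4 with centred libraries. Over all features limma called 3009 in the main fit, 3101 with the pseudocount of 0.1 and 452 with centred libraries.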

How the results depend on the processing

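The number of gene models that meet the rule was 31. It became 9 with equal medians, 16 with quantile normalization, 196 at 2-fold and 14 at 4-fold, 92 with a minimum of 1 TPM and 14 with a minimum of 10 TPM, and ran from 20 to 278 when 1 library was left out. The lowest came without B73 germ cell replicate 1 and the highest without B73 anther replicate 2. It was 74 and 95 without ms28 anther replicates 1 and 2. Leaving out an anther library can only keep or add gene models, since the rule takes the lower B73 and the higher ms28 value. Without 1 germ cell library, 19 to 29 of the 31 still met it.

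Members called lower in ms28 anthers were 30, and 14 with centring, 2 in the anther table alone, and 3 to 31 when 1 library was left out. Dropping ms28 anther replicate 2 left 13, dropping B73 anther replicate 1 left 18, and dropping either ms28 germ cell library left 16. In germ cells, 2 became 1 with no filter on low values, 0 with the replicate block, and 0 to 2 without 1 library. The 0 came without either ms28 anther library, either ms28 germ cell library or B73 germ cell replicate 2. For the interaction, 22 became 4 with centring, 2 with quantile normalization, and 0 to 25 without 1 library (2 and 6 when an ms28 anther library, replicate 1 or 2, was dropped, and 6 on dropping B73 germ cell replicate 1). The tissue calls in B73, 14 in all, ran from 12 to 20 without 1 library. Centring turned their split from 1 higher and 13 lower to 5 higher and 11 lower. Over all features, anther calls went from 1633 to 307 with centring and 67 in the anther table alone. Interaction calls went from 3009 to 452 with centring and 221 with quantile normalization. With 1 library left out, both fell over all features as well, except without B73 anther replicate 2. Each cause was not tested, beyond the fewer libraries in some fits.

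The median premeiotic percentile of 56.3 was 50.7 over features in all 3 tables, 44.4 over features at 1 or more before meiosis, and 54.6 to 58.3 with 1 premeiotic library. Of 297 alternative values for the 21 named genes, 0 changed sign, 68 lost a call and 7 gained one. Most of these values are anther changes, whose sign the rule fixed whichever library was left out. The count of sign changes is therefore no test of them.

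The replicate numbers do not pair the libraries by the labels. Deviations of same-numbered libraries correlated at -0.08 between ms28 and B73 anthers at -0.03 between ms28 and B73 germ cells and at 0.14 between B73 anthers and B73 germ cells, and from -0.04 to 0.03 for the other pairs of groups. The block gave 29 members called in anthers, 18 for the interaction and 13 between tissues.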
